A study of Homo sapiens with 4 samples.

Results

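SLC7A11, the glutathione synthesis genes GCLC and GCLM, and 7 further genes of ferroptosis and iron handling (GPX4, ACSL4, TFRC, FTH1, FTL, NCOA4 and AIFM2) were followed in SK-N-BE(2), a human cell line from neuroblastoma, a tumour of sympathetic nerve precursors, that carries MYCN in many copies. The 10 genes were taken by symbol from a table of 60671 genes, and each symbol matched 1 Ensembl row. They were chosen by name with the shMETTL14 against shNC contrast of these same libraries already known, so their levels and fold changes in that contrast are given as a description, with no test. RNA sequencing compared 2 libraries of cells carrying a control short hairpin RNA (shNC) with 2 libraries of cells carrying a hairpin against METTL14 (shMETTL14), which together with METTL3 forms the enzyme that methylates adenosines of mRNA (m6A). According to the methods of the study, hairpins were delivered in the lentiviral vector pLKO.1 and infected cells were grown in puromycin. The methods do not list RNA sequencing among the uses of these stable lines. More than 1 METTL14 hairpin was used in the study, and the labels do not say which one the sequenced cells carried, so an effect of METTL14 loss and an off-target effect of a hairpin cannot be told apart. The labels call the libraries replicates, and nothing says that they came from separate cultures. The p-values therefore set the group difference against a spread between libraries that may be only technical.

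Ferroptosis is a form of cell death driven by iron-dependent peroxidation of membrane lipids. SLC7A11 is the transport subunit of system xc-, which exchanges intracellular glutamate for extracellular cystine, the source of cysteine for glutathione, and GPX4 uses glutathione to reduce lipid hydroperoxides. Iron enters through the transferrin receptor TFRC and is stored in ferritin, a shell of FTH1 and FTL subunits. Neuroblastoma cells with high MYCN are known for a strong need of cystine and iron.

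Depth ran from 18925786 to 19886214 counts in genes per library, and replicate libraries differed by little (a biological coefficient of variation of 3.45%). METTL14 (ENSG00000145388, chr4:118685368-118715433, plus strand) had 753 and 754 counts in the shNC libraries and 303 and 321 in the shMETTL14 libraries. Its level fell to 41.7% of that in shNC, and the log2 fold change was -1.26 with an SE of 0.0832 (edgeR's quasi-likelihood test, adjusted p = 3.6e-11). The knockdown came with a very broad change of the transcriptome. Of 16309 genes tested, 52.5% passed an adjusted p of 0.05, with 27.2% higher and 25.3% lower in shMETTL14, and 8.79% passed and changed at least 2-fold. Of the genes called, 51.8% were higher under TMM scaling and 41.7% under upper quartile scaling. All 9 neuroblastoma markers were expressed in each library, from 47 counts upward. Of 10 markers of blood, endothelial, epithelial, connective and liver cells, 5 stayed under 10 counts in every library, and their summed level was 22.5 and 21.8 CPM (counts scaled to library size) in shNC and 14 and 15.5 CPM in shMETTL14. The part of this small difference in the values below was not tested.

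All 10 genes passed the filter on low counts. By the whole-table threshold 6 of the 10 were called, against 52.5% of all genes tested. Of these 6, 4 were higher (TFRC, FTH1, AIFM2 and GCLC) and 2 lower (SLC7A11 and NCOA4). SLC7A11 was the only one of the 10 that was called and changed at least 2-fold. The libraries of the groups did not overlap in 9 of the 10, all but FTL, against 75.5% of all genes tested. Because the choice of the genes and these counts rest on the same contrast, nothing is read from them. The median log2 fold change of the 10 was 0.15, and the median size of change regardless of direction was 0.21 on the log2 scale against 0.30 over all genes tested. Apart from SLC7A11 and TFRC, between 40.4% and 88.6% of all genes tested changed by more than each of these genes in either direction.

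**Figure D1:**
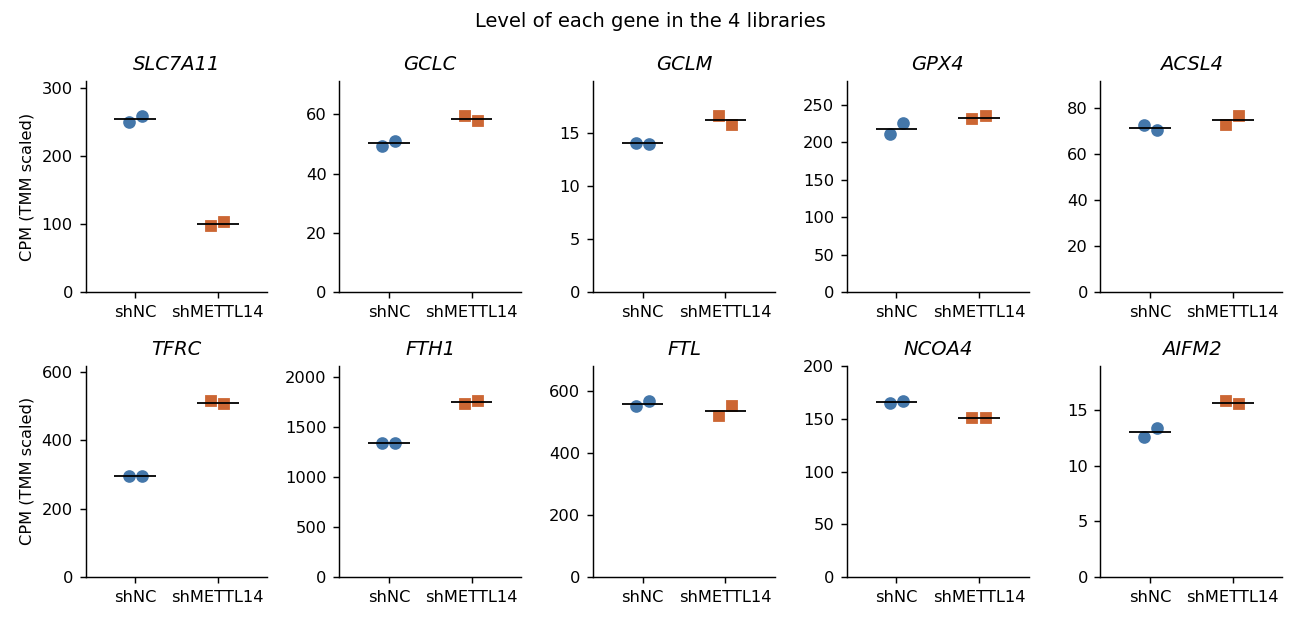
Level of each of the 10 genes in CPM after TMM scaling (y axis, linear and starting at 0, with its own range in each panel) in the 2 shNC (circles) and 2 shMETTL14 (squares) libraries, with horizontal lines at the group means. SLC7A11 lies at 251 and 259 CPM in shNC and at 98 and 104 CPM in shMETTL14, TFRC and FTH1 lie higher in shMETTL14, and the FTL points of the groups overlap.

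SLC7A11 (ENSG00000151012, GRCh38 chr4:138164097-138242349, minus strand) was the gene that stood out by its loss. It had 5008 and 4958 counts in the shNC libraries and 1918 and 2011 counts in the shMETTL14 libraries. After scaling these were 251 and 259 CPM against 98 and 104 CPM. Both shMETTL14 libraries lay far below both shNC libraries, and within a group the libraries stayed within 0.0931 of each other on the log2 scale. The mean was 255 ± 5.42 CPM (SD, n = 2) in shNC and 101 ± 4.62 CPM (SD, n = 2) in shMETTL14, which is 39.7% of the shNC level. The log2 fold change was -1.33 (SE 0.0446, 95% interval -1.43 to -1.24). Among all genes tested, 3.7% had a lower log2 fold change and 5.2% a larger one in either direction. In bulk RNA, fewer cells that express a gene and less RNA per cell cannot be told apart. Over 11 alternative fits its log2 fold change lay between -1.40 and -1.28. The antisense gene SLC7A11-AS1, which shares part of its exon sequence, had at most 1 count in any library. For comparison, METTL14 itself was at 41.7% of its shNC level.

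The heavy chain partner of SLC7A11 did not pass the test. SLC3A2, which carries SLC7A11 to the plasma membrane and also serves other amino acid transporters, had 197 and 206 CPM in shNC and 185 and 192 CPM in shMETTL14. The groups did not overlap, but the log2 fold change of -0.09 (SE 0.0421) did not pass the test (edgeR adjusted p = 0.068). In 5 of 11 alternative fits it passed, with values down to -0.16 under upper quartile scaling and of -0.13 without shNC replicate 1.

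GCLC and GCLM encode the catalytic and the modifier subunit of glutamate-cysteine ligase, the rate-limiting enzyme of glutathione synthesis. GCLC (ENSG00000001084, chr6:53497341-53616970, minus strand) had 49.5 and 51 CPM in shNC and 59.4 and 57.8 CPM in shMETTL14. Each shMETTL14 library was above each shNC library, and the mean rose to 117% of shNC, a log2 fold change of 0.22 (SE 0.0581, 95% interval 0.10 to 0.34). GCLM (ENSG00000023909, chr1:93885205-93909456, minus strand) had 14.1 and 14 CPM in shNC and 16.6 and 15.8 CPM in shMETTL14. Its log2 fold change of 0.21 (SE 0.1, 95% interval -0.0028 to 0.41) was of the same size as that of GCLC, but it was not called here or in any of 11 alternative fits. GCLM was counted at 269 to 326 reads per library, and its interval is wider than that of GCLC. Thus the importer of cystine fell while neither subunit of the ligase was called lower.

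GPX4 and AIFM2 encode enzymes that act against lipid peroxides by separate routes. GPX4 (ENSG00000167468, chr19:1103926-1106791, plus strand), a selenoprotein, had 211 and 226 CPM in shNC and 231 and 235 CPM in shMETTL14. The shMETTL14 libraries lay just above, the shNC libraries differed from each other about as much as the groups did, and the log2 fold change of 0.09 (SE 0.0423, 95% interval 0.003 to 0.18) was not called. It was called without shNC replicate 2, with a log2 fold change of 0.14, and with the replicate number as a block. AIFM2, also called FSP1 (ENSG00000042286, chr10:70098223-70132934, minus strand), reduces coenzyme Q10 so that it can trap lipid radicals. It had 12.6 and 13.4 CPM in shNC and 15.8 and 15.5 CPM in shMETTL14, 120% of shNC. The log2 fold change was 0.27 (SE 0.103, 95% interval 0.05 to 0.48). With 252 to 310 counts per library its call was fragile and held in only 3 of 11 alternative fits, though the values stayed positive, between 0.20 and 0.32. It was lost without shNC replicate 1 (0.22) and without shMETTL14 replicate 1 (0.26) or 2 (0.29).

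ACSL4 (ENSG00000068366, chrX:109624244-109733403, minus strand) activates arachidonic and other polyunsaturated fatty acids, which then enter the membrane phospholipids that peroxidise. It had 72.4 and 70.6 CPM in shNC and 72.7 and 76.4 CPM in shMETTL14. The groups were adjacent without overlapping, and the log2 fold change of 0.06 (SE 0.0516, 95% interval -0.05 to 0.17) was not called and took the value -0.01 under upper quartile scaling.

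**Figure D2:**
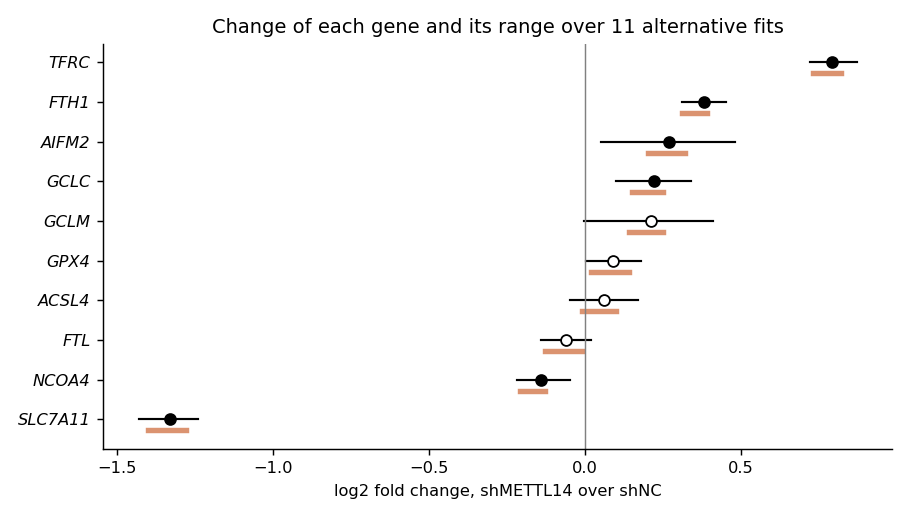
Log2 fold change of each gene, shMETTL14 over shNC (x axis), from the edgeR fit, with its 95% interval as a black line, filled points for genes called and open points for genes not called. Orange bars under the points give the range over 11 alternative fits. SLC7A11 stands alone at -1.33, TFRC is highest at 0.79, and 8 genes lie between -0.14 and 0.38.

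Transcripts of TFRC, FTH1 and FTL carry a known RNA hairpin. Iron regulatory proteins bind an RNA hairpin, the iron-responsive element, when cells lack iron. In the 3′ UTR of TFRC this binding protects the mRNA from decay, whereas in the 5′ UTR of ferritin and ferroportin it blocks translation. The hairpins are shown because they differ in place and number between TFRC and the ferritin genes. Log2 fold changes were 0.79 for TFRC, 0.38 for FTH1, -0.06 for FTL and 0.94 for SLC40A1. Any part of the hairpins in these RNA levels was not tested. They were found in the GENCODE 29 transcript with the longest coding sequence of each gene, on GRCh38, as CNNNNNCAGTG followed by bases that can pair with the 5 stem bases. Capitals mark the 6-base loop, and the sequences are written 5′ to 3′ on the strand of the transcript.
TFRC, 3′ UTR, chr3:196050980-196051006, minus strand: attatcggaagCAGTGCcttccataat
TFRC, 3′ UTR, chr3:196050576-196050602, minus strand: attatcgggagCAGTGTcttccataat
TFRC, 3′ UTR, chr3:196050511-196050537, minus strand: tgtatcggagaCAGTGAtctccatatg
TFRC, 3′ UTR, chr3:196050464-196050490, minus strand: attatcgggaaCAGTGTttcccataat
FTH1, 5′ UTR, chr11:61967575-61967601, minus strand: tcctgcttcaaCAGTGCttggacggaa
FTL, 5′ UTR, chr19:48965336-48965362, plus strand: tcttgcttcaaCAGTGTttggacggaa
SLC40A1, 5′ UTR, chr2:189580662-189580688, minus strand: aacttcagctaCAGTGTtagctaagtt

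Such a hairpin was found in the 5′ UTR of 18 of 12788 coding genes tested (0.141%) and in the 3′ UTR of 78 (0.61%). TFRC was the 1 gene of the 12788 with at least 4 copies found in a 3′ UTR. The search asked for pairing of all 5 stem bases in 1 transcript per gene. It can therefore miss true elements, and the copies given are counts of matches. SLC7A11, GCLC, GCLM, GPX4, ACSL4, NCOA4 and AIFM2 had none in the transcripts searched, but the GCLC transcript has no annotated 5′ UTR and the GPX4 transcript a 3′ UTR of 22 bases, where none could be found. A match of letters is a description, and no binding was measured.

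TFRC (ENSG00000072274, chr3:196027183-196082189, minus strand), which imports transferrin-bound iron, rose more than any other gene of the set. It had 5864 and 5627 counts in shNC and 10075 and 9723 in shMETTL14, or 294 and 294 CPM against 515 and 505 CPM. The groups were far apart, with the libraries of a group within 0.0265 of each other on the log2 scale. The mean rose from 294 ± 0.246 to 510 ± 6.61 CPM (SD, n = 2 each), 173% of shNC, and the log2 fold change was 0.79 (SE 0.0381, 95% interval 0.72 to 0.87). Of all genes tested, 94.7% had a lower log2 fold change. Over 11 alternative fits its log2 fold change lay between 0.73 and 0.82.

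Of the ferritin subunits, the heavy chain was higher and the light chain was not called. FTH1 (ENSG00000167996, chr11:61959718-61967660, minus strand), the heavy chain that oxidises ferrous iron, had 26867 and 25748 counts in shNC and 34035 and 33973 in shMETTL14. In CPM these were 1348 and 1345 against 1738 and 1765, 130% of shNC, with a log2 fold change of 0.38 (SE 0.0346, 95% interval 0.31 to 0.45). FTL (ENSG00000087086, chr19:48965301-48966878, plus strand), the light chain that aids mineral formation, had 550 and 567 CPM in shNC and 518 and 552 CPM in shMETTL14. Its groups overlapped, and the log2 fold change of -0.06 (SE 0.0397, 95% interval -0.14 to 0.02) was not called. FTL was called lower under library size alone (-0.11) and under upper quartile scaling (-0.13). The difference between the subunits was not tested.

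Both ferritin genes have processed copies that can take some of their reads. The 25 FTH1P rows together held at most 0.389% of the FTH1 counts in any library, and the 16 FTLP rows at most 0.137% of the FTL counts. Adding them to the parent gene left the log2 fold changes at 0.38 and -0.06. BEST1 on the opposite strand leaves 37.59% of the FTH1 exon bases free of overlap, and the strand setting of the counting is not given in the sources used here. BEST1 had 263 to 300 counts per library, against 25748 or more for FTH1.

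NCOA4 (ENSG00000266412, chr10:46005088-46030714, minus strand) is the receptor that brings ferritin to lysosomes for degradation, which releases its iron. It had 165 and 167 CPM in shNC and 151 and 151 CPM in shMETTL14. Both shMETTL14 libraries were below both shNC libraries, and the mean fell to 90.9% of shNC, a log2 fold change of -0.14 (SE 0.0416, 95% interval -0.22 to -0.05). The call was lost with DESeq2 and without either shMETTL14 replicate, each time at a log2 fold change of -0.13. Thus RNA of TFRC and of the ferritin heavy chain was higher, the light chain was not called, and RNA of NCOA4 was slightly lower.

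**Figure D3:**
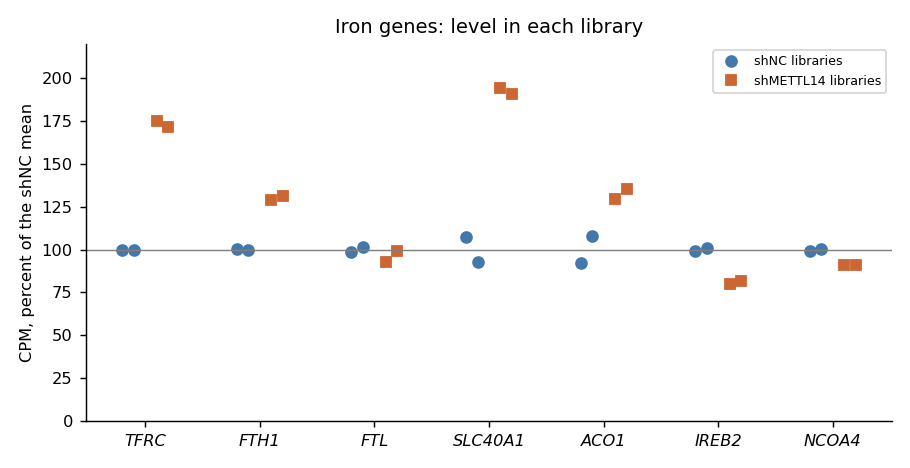
Level of 7 iron genes in each library as a percentage of the mean CPM of the shNC libraries (y axis, starting at 0), with shNC libraries as circles and shMETTL14 libraries as squares. TFRC, FTH1, SLC40A1 and ACO1 lie above their shNC libraries, IREB2 and NCOA4 lie below them, and FTL overlaps.

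Between genes, levels were compared as CPM per kilobase of exon (union of the annotated exons in GENCODE 29). In shNC the order from high to low was FTH1 at 663, FTL at 636, GPX4 at 108, NCOA4 at 40.7, TFRC at 37.3, SLC7A11 at 26.4, ACSL4 at 11.1, GCLC at 5.81, GCLM at 2.6 and AIFM2 at 2.54 CPM per kilobase. Only GCLM and AIFM2 overlapped between libraries, so their order is not set. In shMETTL14 TFRC, at 64.6, stood above NCOA4, at 37, and SLC7A11, at 10.5, stood below ACSL4, at 11.6 CPM per kilobase. By this measure the ferritin genes had by far the most RNA per length in both groups, and the ligase subunits and AIFM2 the least. The union of exons can be far longer than a single transcript. For GCLC it was 8646 bases, against 2289 in the transcript with the longest coding sequence. The order by transcript length was not worked out, so the place of GCLC is not set.

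The genes around these 10 were described with 11 lists of pathway genes, of which 143 of 144 symbols beside the 10 genes were found and 128 were tested. Of those 128, 83 were called, 52 higher and 31 lower, which is 64.8% against 52.5% over all genes tested. The lists were chosen with earlier results of these data known. Nothing is therefore read from this difference or from the counts of single lists below. Over all genes tested, 27.2% were called higher and 25.3% lower. The median log2 fold change of the 128 was 0.09. These genes were also more abundant, with a median log2 CPM of 6.09 against 4.28 over all genes tested, and the part of this in the count was not tested. In the following, adjusted p-values are those of edgeR's quasi-likelihood test over all genes. SLC1A5, GPX7, GSTO1, GSTZ1, SEPHS1, CAT, GCH1, MBOAT2, NQO1, AGPS, GNPAT, POR, PEBP1, PCBP1, TKT, BAP1, ARID1A, KDM3B and STAT3 were chosen for naming after their values were seen, because they complete a small count, and ALOX12B because it is the lipoxygenase that was tested. Exons of PCBP1, ALOX12B, PRDX1, SLC1A5, PLA2G6 and NFE2L2 overlap other annotated genes, with 47.77%, 73.2%, 75.1%, 76.17%, 77.54% and 79.09% of their bases free, so their counts are less certain.

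Genes of the list on cystine and cysteine supply were split. Of 7 tested, 1 rose and 4 fell. Beside the transsulfuration genes CBS and CTH they were SLC3A2, SLC1A5, MAT2A, MAT2B and AHCY, so not all supply cysteine directly. CTH, which releases cysteine from cystathionine in the last step of transsulfuration, had 12.8 and 15.2 CPM in shNC and 22 and 18 CPM in shMETTL14 (log2 fold change 0.51, adjusted p = 5.3e-04). CBS, which makes cystathionine, fell from 104 ± 14.5 to 81 ± 7.57 CPM (log2 fold change -0.36, adjusted p = 1.9e-04), and as a gene with a near-identical copy its counts are uncertain. MAT2A, which makes S-adenosylmethionine, the methyl donor of METTL14's complex, fell to 80.9% of shNC (log2 fold change -0.31, adjusted p = 3.3e-07). AHCY, which clears the product of methylation, fell to 87.3% and the glutamine transporter SLC1A5 by 0.17 on the log2 scale, the latter not called without shMETTL14 replicate 1 (-0.13). In transsulfuration the first enzyme fell and the second rose.

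Of 10 genes of glutathione synthesis and recycling tested, 7 were called higher and 1 lower, with a median log2 fold change of 0.16. With DESeq2, with upper quartile scaling and without shMETTL14 replicate 2 only 3 were called higher, and over all genes tested 27.2% were. The pair of enzymes that break glutathione down in the cytosol went opposite ways. CHAC2 had 9.33 and 9.61 CPM in shNC and 24.6 and 23.3 CPM in shMETTL14, 253% of shNC (log2 fold change 1.34, SE 0.1, adjusted p = 2.9e-10). CHAC1, a target of ATF4, had 76.2 and 82.2 CPM in shNC and 48.8 and 51.2 CPM in shMETTL14, 63.1% of shNC (log2 fold change -0.66, SE 0.0571, adjusted p = 2.6e-09). The glutaredoxins GLRX, at 244% of shNC but under 6 CPM, and GLRX2, at 139%, also rose. GSS, which completes glutathione, was not called (0.12, adjusted p = 0.132), and GSR, which regenerates it, rose slightly (0.16, adjusted p = 0.015) and lost its call in 5 alternative fits, among them those without shMETTL14 replicate 2 (0.11) and without shNC replicate 2 (0.15). GSS was called without shMETTL14 replicate 1 (0.23). The count of genes called in this list fell from 8 to 4 with DESeq2, with upper quartile scaling and without shMETTL14 replicate 2, and to 5 with library size alone.

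Other glutathione peroxidases and transferases were mixed, with 4 higher, 3 lower and 9 not called of 16 tested. MGST1, a membrane-bound transferase, had 8.38 and 9.87 CPM in shNC and 2.96 and 3.07 CPM in shMETTL14, 33% of shNC (log2 fold change -1.59, SE 0.172, adjusted p = 7.9e-08). GPX1, the main cytosolic peroxidase, rose to 143% of shNC (0.52, adjusted p = 3.8e-08), as did MGST3 to 125%, GPX7 by 0.23 and GSTO1 by 0.23 on the log2 scale. GSTA4 fell to 80.3% and GSTZ1 by 0.28 on the log2 scale. Without shMETTL14 replicate 2, GSTO1 (0.16) and GSTZ1 (-0.12) were not called. Of the 8 genes tested in the list on synthesis of selenoproteins such as GPX4, 4 fell and 1 rose. The list is broader than the insertion of selenocysteine and also holds TRIT1 and LRP8, which were not called. SEPSECS, which makes selenocysteine on its transfer RNA, had 26.6 and 30.3 CPM in shNC and 17.5 and 17 CPM in shMETTL14, 60.7% of shNC (-0.72, adjusted p = 7.5e-07). EEFSEC, the elongation factor (-0.31), SECISBP2, which reads the insertion signal (-0.27), and SEPHS1 (-0.26) also fell, and SEPHS2, which makes the selenium donor, rose (0.26, adjusted p = 6.3e-04). GPX4, which depends on this machinery for its translation, was not called.

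The thioredoxin system and its peroxiredoxins had 7 higher and 2 lower of 13 tested. TXNRD1, thioredoxin reductase, itself a selenoprotein, had 308 and 319 CPM in shNC and 472 and 477 CPM in shMETTL14, 151% of shNC (log2 fold change 0.60, SE 0.0387, adjusted p = 2.8e-11). PRDX1 rose to 129% and thioredoxin, TXN, to 128% of shNC. TXNIP, which binds and inhibits thioredoxin, fell from 167 ± 3.67 to 52 ± 2.82 CPM, 31.2% of shNC (log2 fold change -1.68, SE 0.0499, adjusted p = 1.1e-16), the lowest log2 fold change among the 128 genes tested. CAT, catalase, fell by 0.28 on the log2 scale.

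**Figure D4:**
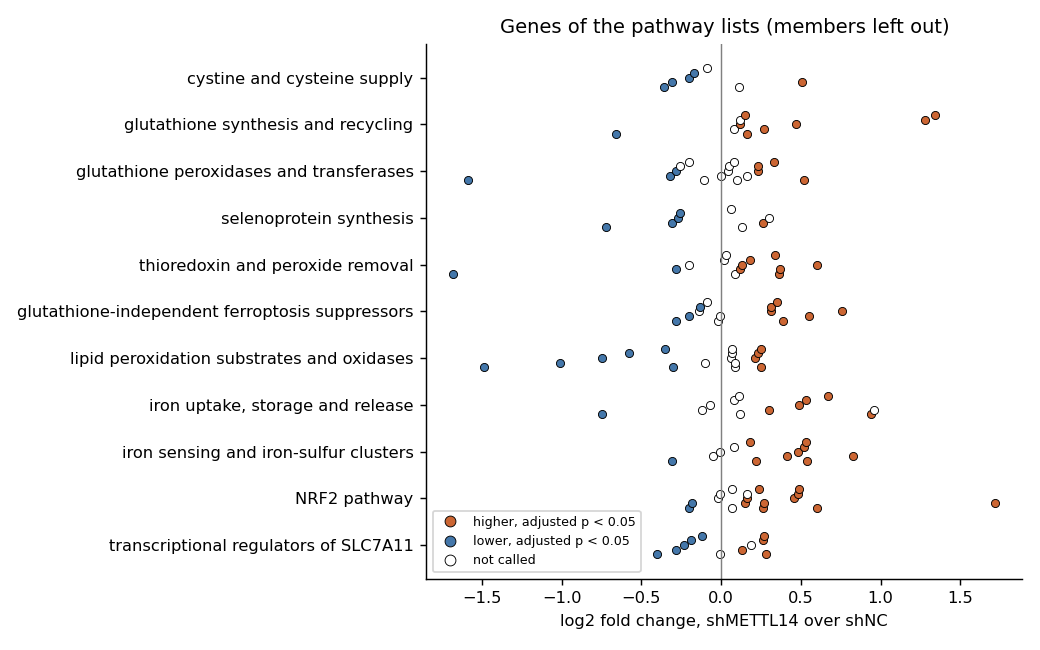
Log2 fold change, shMETTL14 over shNC (x axis), of each tested gene of the 11 pathway lists (rows), with orange points for genes called higher, blue for lower and open points for genes not called. The 10 genes of the set are left out, a gene in several lists is drawn in each, and vertical scatter within a row has no meaning. Iron sensing and NRF2 pathway rows lie mostly to the right, with 8 of 12 and 10 of 17 genes called higher. Over all genes tested 27.2% were called higher.

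Beside AIFM2, other suppressors of ferroptosis that work without glutathione had 6 higher and 3 lower of 13 tested. In the making of coenzyme Q10, the substrate of AIFM2, COQ2 rose from 15.3 ± 2.42 to 26 ± 2.03 CPM (log2 fold change 0.76, adjusted p = 2.1e-06) and PDSS1 to 131% of shNC (0.39, adjusted p = 0.00106). VKORC1L1, which reduces vitamin K, rose to 147% (0.55, adjusted p = 2.3e-08) and PTS, of tetrahydrobiopterin synthesis, to 128%. GCH1, the rate-limiting enzyme of that same synthesis, fell by 0.28, NQO1 by 0.20 and MBOAT2 by 0.13 on the log2 scale. The calls of GCH1 and MBOAT2 were lost with DESeq2 and without shMETTL14 replicate 1 (-0.19 and -0.13), and that of MBOAT2 also without shMETTL14 replicate 2 (-0.11) or shNC replicate 1 (-0.10).

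Beside ACSL4, genes of lipid substrates and oxidation had 4 higher and 6 lower of 16 tested. PLA2G6, a phospholipase that removes oxidised fatty acids, had 22.6 and 23.1 CPM in shNC and 11.5 and 11.2 CPM in shMETTL14, 49.7% of shNC (log2 fold change -1.01, adjusted p = 1.5e-08). SAT1, of polyamine catabolism, fell to 59.6% (adjusted p = 1.3e-06). ELOVL5 and FADS1, which lengthen and desaturate polyunsaturated fatty acids, fell to 67% (-0.58, adjusted p = 9.1e-11) and 78.4% (-0.35, adjusted p = 1.8e-07). AGPS and GNPAT, which start ether lipid synthesis, rose by 0.25 and 0.23, PEBP1 by 0.25 and the oxidoreductase POR by 0.21 on the log2 scale, where POR lost its call with DESeq2 (0.22), without shMETTL14 replicate 2 (0.17) and without shNC replicate 1 (0.11). The lipoxygenase ALOX12B had 23 and 20 counts in shNC and 8 and 7 in shMETTL14 (log2 fold change -1.49, SE 0.467, adjusted p = 0.0103), and its call was lost with DESeq2 (-1.50), without shMETTL14 replicate 1 (-1.58) or 2 (-1.41) and without shNC replicate 1 (-1.42) or 2 (-1.56). ALOX5, ALOX12 and ALOX15 had at most 2 counts in any library and were not tested.

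Beside TFRC and the ferritins, iron uptake, storage and release genes had 5 higher and 1 lower of 12 tested. SLC40A1, ferroportin, the exporter of iron from cells, had 3.91 and 3.39 CPM in shNC and 7.1 and 6.96 CPM in shMETTL14, 192% of shNC (log2 fold change 0.94, SE 0.172, adjusted p = 8.5e-05). HMOX2 rose to 159% and HMOX1 to 141% of shNC, both of which release iron from haem, and HMOX1 lost its call with DESeq2. SLC39A8, a metal importer, rose to 144%, and the iron chaperone PCBP1 by 0.30 on the log2 scale. MELTF fell to 59.5% (adjusted p = 2.7e-06). RNA of TFRC, FTH1 and SLC40A1 was higher, while FTL was not called. The other 6 of the 12 listed genes, further genes of iron uptake among them, were not called. The share called in this list was 50%, against 52.5% over all genes tested.

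Iron sensing and iron-sulfur cluster genes had 8 higher and 1 lower of 12 tested. Their median log2 fold change of 0.32 was the highest of the 11 lists. With DESeq2 7 were called higher and with upper quartile scaling 6, and over all genes tested 27.2% were. The RNAs of the iron regulatory proteins, which bind the hairpins printed above, went opposite ways. ACO1, which is also cytosolic aconitase, had 16.5 and 19.3 CPM in shNC and 23.2 and 24.2 CPM in shMETTL14, 132% of shNC (log2 fold change 0.41, adjusted p = 9.3e-04). IREB2, the more abundant in CPM, had 181 and 185 CPM in shNC and 146 and 149 CPM in shMETTL14, 80.7% of shNC (log2 fold change -0.31, adjusted p = 2.1e-06). GLRX5, which carries iron-sulfur clusters in mitochondria, rose to 178% (0.83, adjusted p = 1.4e-11), and CISD1 and CISD2 to 144% of shNC each. Protein and iron levels were not measured in these libraries.

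SLC7A11, GCLC, GCLM, FTH1 and FTL are all known targets of NRF2, the transcription factor encoded by NFE2L2. Of 17 other tested genes of that pathway, 10 rose and 2 fell, NQO1 by 0.20 and TKT by 0.18 on the log2 scale. Only 7 were called higher with DESeq2, and 8 with upper quartile scaling or library size alone. Over all genes tested, 27.2% were called higher and 25.3% lower. NFE2L2 rose from 117 ± 5.22 to 141 ± 0.0389 CPM (log2 fold change 0.27, adjusted p = 3.0e-05) and KEAP1, which directs its degradation, to 118% of shNC (0.24, adjusted p = 8.0e-04). The NRF2 partner MAFG rose to 137% (0.46, adjusted p = 1.1e-05).

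Of 11 known regulators of SLC7A11, 4 rose and 5 fell. ATF4, the activator that responds to amino acid shortage, had 763 and 786 CPM in shNC and 650 and 628 CPM in shMETTL14, 82.6% of shNC (log2 fold change -0.28, adjusted p = 2.1e-06). ATF3 fell to 75.9% of shNC (-0.40, adjusted p = 8.2e-05). STAT3 fell by 0.23 and KDM3B by 0.12 on the log2 scale. MYCN, with its amplified gene, rose from 2616 ± 28.8 to 3173 ± 28.8 CPM, 121% of shNC (0.28, adjusted p = 3.8e-07), and BAP1 by 0.26 and ARID1A by 0.13 on the log2 scale. The calls of KDM3B and ARID1A were lost with DESeq2 and without shMETTL14 replicate 1 (-0.12 and 0.11) or shNC replicate 2 (-0.11 and 0.05), and that of KDM3B without shMETTL14 replicate 2 (-0.11). Any part of these RNA changes in the lower level of SLC7A11 was not tested, and protein of the regulators was not measured in these libraries.

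Promoter sequence was searched in the RefSeq windows of 300 bases (250 before to 50 after each annotated start, GRCh38.p14) that 8 of the 10 genes have. The core of the antioxidant response element, to which NRF2 binds, searched as TGACNNNGC on both strands, was found in 3 of the 8, against 16.1% of 27305 genes with such windows and 19.3% of those tested here. The matches are shown because they are all that the search found, with the match in capitals, 5′ to 3′ on the strand of the gene.
GCLM, chr1:93909448-93909472, minus strand: cgatttctGCTTAGTCAttgtcttc
AIFM2, chr10:70132831-70132855, minus strand: gcacgagtGCTGAGTCAcgccccgc
NCOA4, chr10:46019960-46019984, minus strand: ctgaaagcTGACAGTGCtctaactg

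The match began 34 bases before the start of GCLM and 22 before that of AIFM2, and 24 bases past an annotated RefSeq start of NCOA4 that lies inside the span of the gene given above. The log2 fold changes of these genes were 0.21 (not called), 0.27 and -0.14. The amino acid response element core TTNCATCA was in 0 of the 8 windows (4.46% of all genes) and the E-box CACGTG in 0 of the 8 (8.77%), which says only that these letters are not in these windows. SLC7A11 and FTH1 were not searched.

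The word GGACT, the commonest form of the m6A consensus, was counted in the longest-coding transcript of each gene. SLC7A11 had 3 in 9645 bases, or 0.311 per kilobase, and 12.3% of the coding genes tested had a lower density. TFRC had 1.17 and AIFM2 1.85 per kilobase, against a median of 0.939. Methylation was not measured in these libraries, and a word in a transcript is not a methylated site.

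The genes whose pattern was most like that of SLC7A11 over the 4 libraries were found by the Euclidean distance between log2 CPM values relative to the shNC mean, among 11424 genes with a symbol and a mean log2 CPM of at least 2. They were APOLD1 (distance 0.061), LINC02607 (0.069), DEPDC1 (0.069), CYP2S1 (0.079) and PELI2 (0.092). DEPDC1 had 111 and 110 CPM in shNC and 44.2 and 45.5 CPM in shMETTL14. None of the 10 genes was near, the closest being NCOA4 at rank 3500. With 4 libraries in 2 groups, this likeness reflects mainly the size of the fold change.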

How the data were processed

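Libraries of RNA from 2 shNC and 2 shMETTL14 samples were read as 150-base pairs on a NovaSeq instrument, and the deposited table holds raw read counts per Ensembl gene made by the authors, with no normalization. The submitters' processing notes name HISAT2 2.1.0, StringTie 1.3.6, HTSeq 0.13.5, edgeR and GRCh38, without roles, and the annotation release and strand setting are not given in the sources used here. The 5 rows naming no gene (19.1% to 19.9% of counts) were left out, and reads of overlapping or near-identical genes may be lost or shared.

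The counts were fitted with edgeR 4.0.16 in R 4.3.3 (TMM scaling, filterByExpr with a minimum count of 10, quasi-likelihood F-test, Benjamini-Hochberg adjustment over 16309 genes, threshold 0.05), with the 2 shNC and 2 shMETTL14 libraries and no covariate. Fold changes are shMETTL14 over shNC. An exact permutation test of 2 against 2 libraries cannot go below p = 0.333, so calls rest on the variance shared across genes. Standard errors come from the F statistic and intervals are at 95%. On simulated counts of these libraries with 200 genes changed, 69.5% were recovered at a log2 fold change of 0.5 (4.79% of calls false, 16169 genes) and 94% at 1 (5.53% false, 16229 genes). The simulation gave every gene the same biological coefficient of variation and changed few genes, whereas 52.5% were called in the data. Its shares of false calls therefore do not carry over to the calls reported here. Alternatives were DESeq2 1.42.0, other scalings and filters, a replicate block, each library left out, and pseudogene counts added to FTH1 and FTL.

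The 10 genes and the lists were chosen with earlier results of these data known. From each list up to 4 called genes with the largest fold change and a mean log2 CPM of at least 1 were named, with SLC3A2, GSS, GSR, NFE2L2, KEAP1, ATF4, IREB2 and ACO1 whatever they showed and the 5 genes most like SLC7A11. Coordinates and transcripts are from GENCODE 29. A few listed genes are counted but not reported singly here.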

Additional observations from a re-analysis of the deposited data

How the results depend on the processing

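The number of genes called was 8561, 5538 with DESeq2 (the cause was not tested) and between 7287 and 7458 with 1 library left out. Scaling moved the median log2 fold change by at most 0.068 (upper quartile, downward). ACSL4, not called, changed sign to -0.01 under upper quartile scaling, the one reversal among the values reported for single genes. NCOA4 lost its call in some of the 11 alternatives and AIFM2 in most, and GPX4 and FTL gained one in 2. The number called among the 10 ranged from 4 (DESeq2, or without either shMETTL14 replicate) to 7 (without shNC replicate 2, or with the block). Of 70 pathway genes followed singly, 12 lost their call in at least 1 alternative (40 values), 2 gained it (SLC3A2 and GSS, 6 values) and 0 reversed. The labels give both groups replicate numbers 1 and 2. Over genes, same-numbered libraries hardly deviated together (correlation 0.0717). From 2 libraries per group this value cannot tell whether they share a culture or a batch. With a replicate block 8926 genes were called. Values at low depth are the least certain, among them AIFM2 and GCLM.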
